A study of Mus musculus with 12 samples.

Results

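Cultured mouse primordial germ cell-like cells (PGCLCs) at culture day 7 were set against the migrating primordial germ cells (PGCs) of the embryo at embryonic day (E) 9.5. The comparison uses 4 of the 12 libraries of a 3′-end RNA sequencing series, 2 named d4c7 PGCLC and 2 named E9.5 PGC, chosen by those group labels alone. The d4c7 PGCLCs were C57BL/6 cells that carried the reporters Blimp1-mVenus and Stella-ECFP. They were induced for 4 days, expanded for 7 days on m220 feeder cells and sorted by Blimp1-mVenus fluorescence, and 10 ng of RNA entered each library. The E9.5 PGCs came from embryos of an ICR and C57BL/6 cross, were sorted by Stella-EGFP fluorescence and gave 1 ng of RNA per library. Culture can therefore not be told apart from strain, reporter, sort and RNA input in any difference given here. Whether the 2 libraries of a group stem from different cultures or litters is not given in the labels, and p-values cover the spread between libraries alone.

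PGCs are the founders of sperm and eggs. Around E9.5 they move through the hindgut towards the future gonads, repress the somatic programme and lose most of their DNA methylation. Once they reach the gonad they switch on a set of late germ cell genes, many of which are held silent elsewhere by promoter DNA methylation and by Polycomb complexes. PGCLCs are the counterpart made from pluripotent stem cells in culture, and expansion culture keeps them dividing without a gonad.

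Values are reads per 1000000 reads in genes (RPM), and the deposited table gives no read counts. Depth was estimated at 2546668 and 5801810 reads in the d4c7 libraries and at 2719978 and 4239444 reads in the E9.5 libraries. For this the most frequent value above 0 in each library was taken as 1 read. A listed 0 allows up to 3 reads, which is between 0.517 and 1.18 RPM in these libraries and covers counting error only. On the log2(RPM + 1) scale, the root mean square difference between replicates was 0.564 in d4c7 PGCLCs and 0.329 in E9.5 PGCs. The model uses 1 spread for all groups, so errors of the d4c7 values may be understated.

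Germ cell marker genes were detected in both groups. Prdm1 in d4c7 PGCLCs and Dppa3 in E9.5 PGCs lie behind the sorting reporters, so their presence was set by the sort. Of the 6 genes summed next, 1 was called higher and 2 lower, and Dppa3 made up most of each sum. The summed level of Dppa3, Prdm1, Tfap2c, Nanos3, Pou5f1 and Kit was 2216 and 2772 RPM in d4c7 PGCLCs, against 3274 and 3282 RPM in E9.5 PGCs. Markers of other cells differed between the groups. Of 18 blood and endothelial genes with a row, 15 were listed at 0 in each d4c7 library, against 4 and 1 in the E9.5 libraries. The 5 globin genes Hbb-y, Hbb-bh1, Hba-x, Hba-a1 and Hba-a2 were all at 0 in both d4c7 libraries, against sums of 4565 and 4035 RPM in E9.5 PGCs. Reads of Hba-a1 and Hba-a2 may be split arbitrarily between these near-identical copies. Meox1, Tbx6, Foxc2 and Twist1, defining genes of somatic mesoderm, summed to 3.53 and 1.72 RPM in d4c7 PGCLCs, against 82.4 and 87.3 RPM in E9.5 PGCs. Defining genes of hindgut endoderm (Sox17, Foxa1, Foxa2, Afp and Ttr) summed to 0 and 0.862 RPM in d4c7 PGCLCs, against 26.5 and 32.3 RPM in E9.5 PGCs. Their whole list of 18 genes summed to 269 and 248 RPM in d4c7 PGCLCs, against 257 and 282 RPM in E9.5 PGCs. Of its 7 tested genes 4 were lower and 2 higher, and Apoe and Cldn6 were the ones higher. Defining stromal genes, among them Col1a1 and Col3a1, summed to 24.7 and 6.03 RPM in d4c7 PGCLCs, against 118 and 119 RPM in E9.5 PGCs. The whole fibroblast and stromal list of 22 genes summed to 1064 and 1265 RPM in d4c7 PGCLCs, against 1369 and 1289 RPM in E9.5 PGCs. Of its 17 tested genes 10 were lower and 2, Sparc and Lgals1, higher. The defining gene Dcn was not called, with a log2 change of 1.62. Sox9, Amh, Wt1 and Nr5a1, which mark gonadal somatic cells, summed to 0 and 0.517 RPM in d4c7 PGCLCs, against 11.4 and 6.37 RPM in E9.5 PGCs, with Amh and Nr5a1 at 0 in all 4. The endothelial genes Cdh5, Kdr, Tie1 and Tek summed to 11.4 and 22.4 RPM in d4c7 PGCLCs, against 7.35 and 6.61 RPM in E9.5 PGCs. In bulk samples, fewer cells of a type and less RNA per cell cannot be told apart. The part of RNA from other cells in the genes described below as lower in d4c7 PGCLCs was not tested.

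With limma and Benjamini-Hochberg adjustment over all genes, 3463 of 10856 genes differed between d4c7 PGCLCs and E9.5 PGCs at an adjusted p under 0.05, which is 31.9% of those tested. Of these genes 1965 were higher in d4c7 PGCLCs (18.1%) and 1498 were lower (13.8%), and 1909 changed at least 2-fold. The median log2 change over all tested genes was 0.04. Both d4c7 libraries lay above both E9.5 libraries for 3907 genes (36.0%) and below both for 3203 genes (29.5%). Leaving out E9.5 replicate 1 left 2069 calls and leaving out E9.5 replicate 2 left 2134. The shares of 18.1% and 13.8% are the background against which the counts of each gene group are given. All gene lists were chosen with earlier results of these data known, so their counts describe the members and test nothing.

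**Figure D1:**
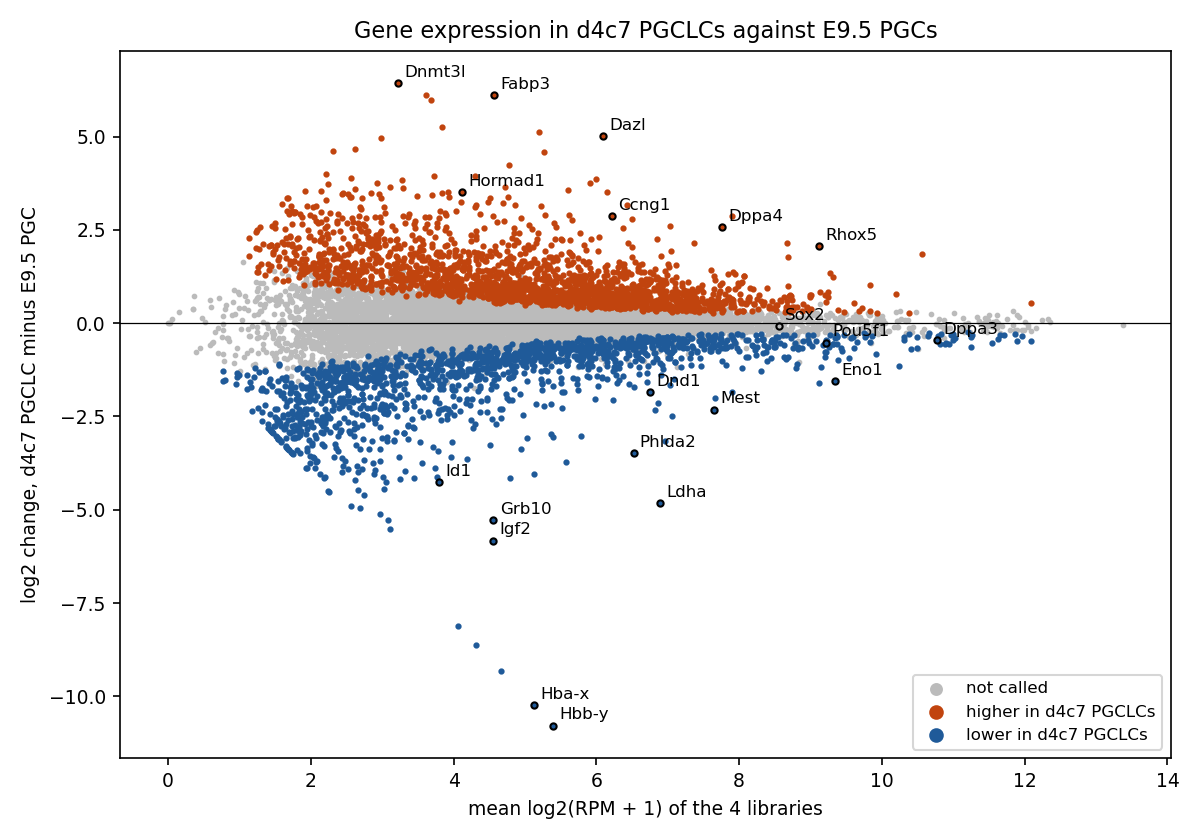
Log2 change of each tested gene (d4c7 PGCLC minus E9.5 PGC) against its mean log2(RPM + 1) over the 4 libraries, with the 1965 genes called higher, the 1498 called lower and the rest in grey. Dazl, Dnmt3l and Fabp3 lie far above 0, globin genes far below, and Sox2 near 0.

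Genes of PGC identity moved in both directions. Of 18 genes of PGC specification and germ cell identity, 5 were higher in d4c7 PGCLCs and 6 lower, with a median log2 change of -0.16. There were 3 higher without d4c7 replicate 2 or E9.5 replicate 2, and 4 lower without E9.5 replicate 1. Prdm1, which encodes the repressor BLIMP1 that founds the lineage, was at 88.3 and 120.1 RPM in d4c7 PGCLCs, against 68.6 and 65.1 RPM in E9.5 PGCs. The log2 change was 0.62 ± 0.15, where the value after ± is the standard error, and the adjusted p was 0.00638. Both d4c7 libraries lay above both E9.5 libraries. Its partner Prdm14 was at 91.5 and 106 RPM in d4c7 PGCLCs, against 80.1 and 82.1 RPM in E9.5 PGCs, a difference that did not pass the test (adjusted p = 0.184). Tfap2c, the third factor of PGC specification, was at 159 and 179 RPM in d4c7 PGCLCs, against 217 and 225 RPM in E9.5 PGCs and did not pass the test either (adjusted p = 0.0724). Sox2, which encodes a pluripotency factor that PGCs need to proliferate, was at 368 and 366 RPM in d4c7 PGCLCs, against 395 and 375 RPM in E9.5 PGCs (adjusted p = 0.664). The genes behind the 2 sorting reporters, Prdm1 and Dppa3, moved in opposite directions. Each was higher in the group sorted by its own reporter, so these directions cannot be told apart from the sort. Dppa3, which encodes Stella, was at 1316 and 1684 RPM in d4c7 PGCLCs, against 2013 and 2089 RPM in E9.5 PGCs (log2 change -0.46 ± 0.10, adjusted p = 0.00372). Pou5f1, which encodes the pluripotency factor OCT4, was at 475 and 521 RPM in d4c7 PGCLCs, against 756 and 678 RPM in E9.5 PGCs (log2 change -0.52 ± 0.12, adjusted p = 0.0035). The calls of these 3 genes were narrow. Prdm1 was at adjusted p = 0.0561 without E9.5 replicate 2, Pou5f1 at adjusted p = 0.0575 without E9.5 replicate 1 and Dppa3 at adjusted p = 0.0587 when only the 4 libraries were fitted.

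Larger changes within the identity list fell on RNA-binding genes and on an X-linked cluster. Dnd1, which encodes an RNA-binding protein that PGCs need to survive, was at 49.1 and 62.9 RPM in d4c7 PGCLCs, against 218 and 190.4 RPM in E9.5 PGCs. The change was -1.85 ± 0.14 on the log2 scale (adjusted p = 3.82e-07), and the groups did not overlap. Lin28a, whose protein blocks let-7 miRNA maturation, was at 6.28 and 15.2 RPM in d4c7 PGCLCs, against 45.2 and 43.9 RPM in E9.5 PGCs (log2 change -2.07 ± 0.36, adjusted p = 0.000572). Ifitm3, the membrane protein gene Fragilis, was at 421 and 694 RPM in d4c7 PGCLCs, against 1053 and 994 RPM in E9.5 PGCs (log2 change -0.92 ± 0.21, adjusted p = 0.00372). Both d4c7 libraries lay below both E9.5 libraries for Lin28a and Ifitm3. Its neighbour Ifitm1 was at 1379 and 1245 RPM in d4c7 PGCLCs, against 1322 and 1218 RPM in E9.5 PGCs, and did not pass the test (adjusted p = 0.751). The homeobox genes Rhox5, Rhox6 and Rhox9, neighbours on the X chromosome, were all higher in culture. Rhox5 was at 1196 and 1080.2 RPM in d4c7 PGCLCs, against 261 and 280.0 RPM in E9.5 PGCs, a log2 change of 2.07 ± 0.11 (adjusted p = 1.26e-08). Rhox6 and Rhox9 changed by 1.77 ± 0.13 and 1.25 ± 0.13 on the log2 scale. Kit, the receptor that keeps migrating PGCs alive, was at 168 and 252 RPM in d4c7 PGCLCs, against 204 and 211 RPM in E9.5 PGCs, with overlapping groups and adjusted p = 0.965. Nanos3, an RNA-binding survival gene, was at 9.42 and 15.2 RPM in d4c7 PGCLCs, against 15.4 and 13.4 RPM in E9.5 PGCs and did not pass the test (adjusted p = 0.537).

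Pluripotency genes beyond Pou5f1 and Sox2 were mostly higher in d4c7 PGCLCs. Of 21 tested, 14 rose and 1 fell, and the median log2 change was 0.82 against 0.04 over all genes. Nanog, which encodes a core pluripotency factor, was at 294 and 307 RPM in d4c7 PGCLCs, against 146 and 126 RPM in E9.5 PGCs (log2 change 1.14 ± 0.13, adjusted p = 1.55e-05). Both d4c7 libraries stood at least 2-fold above both E9.5 libraries for this gene. Dppa4, which encodes a chromatin protein of pluripotent and germ cells, was at 697 and 402 RPM in d4c7 PGCLCs, against 86.8 and 88.2 RPM in E9.5 PGCs (log2 change 2.58 ± 0.18, adjusted p = 3.21e-07). Its paralogue and neighbour Dppa2 was at 175 and 101 RPM in d4c7 PGCLCs, against 18.8 and 15.6 RPM in E9.5 PGCs (log2 change 2.89 ± 0.21, adjusted p = 4.37e-07). Both lie on chromosome 16, whose genes as a whole were higher in d4c7 replicate 1, as given at the end. Tdgf1, which encodes the Nodal co-receptor Cripto, was at 36.1 and 43.8 RPM in d4c7 PGCLCs, against 4.41 and 4.48 RPM in E9.5 PGCs (log2 change 2.90 ± 0.36, adjusted p = 3.56e-05). Several members were near 0 at E9.5. Fgf4, a growth factor gene of pluripotent cells, was at 12.6 and 6.03 RPM in d4c7 PGCLCs, against 0 and 0.236 RPM in E9.5 PGCs, and the E9.5 values lay under the floor of 3 reads. Dppa5a, an RNA-binding protein gene, was well detected in both groups, at 3165 and 2618 RPM in d4c7 PGCLCs, against 801 and 796 RPM in E9.5 PGCs (log2 change 1.85 ± 0.12, adjusted p = 1.24e-07). The 1 called member that fell, L1td1, was at 163 and 126 RPM in d4c7 PGCLCs, against 215 and 217 RPM in E9.5 PGCs (log2 change -0.59 ± 0.15, adjusted p = 0.00671). Leaving out each library in turn gave 10 to 13 members called higher.

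Late germ cell genes, which in the embryo come on around arrival in the gonad, were largely higher in d4c7 PGCLCs. Of 31 members with a row, 22 passed the filter on low values, 15 of the 22 rose and none fell, with a median log2 change of 1.87 against 0.04 over all genes. Since a member silent at E9.5 could pass the filter only through the other groups, count and median describe the members that passed. Over all 31 members, with no filter, the median was 0.88 and 15 rose. Since the members moved together, their promoters were searched for the hexamer CACGTG, the canonical E-box. Of 27025 RefSeq promoters (GRCm38.p6, from 250 bases before to 50 after each start site), 1957 held it, or 7.24%. Among promoters of tested genes the share was 10.9%, among genes called higher 11.8% and among genes called lower 9.48%. Of 27 late germ cell genes with a row and a promoter in the table, 14 held the hexamer (51.9%), and so did 9 of the 14 called higher that had a promoter (64.3%). The hexamer is its own reverse complement, so both strands were read at once. The promoters are shown for 3 genes that hold it and for Dazl, the member that rose most, whose promoter does not. Capitals mark CACGTG, each promoter is written 5′ to 3′ on the gene's strand, and a match is a description of sequence, not of binding.
Hormad1 (chr3:95559427-95559726, plus strand): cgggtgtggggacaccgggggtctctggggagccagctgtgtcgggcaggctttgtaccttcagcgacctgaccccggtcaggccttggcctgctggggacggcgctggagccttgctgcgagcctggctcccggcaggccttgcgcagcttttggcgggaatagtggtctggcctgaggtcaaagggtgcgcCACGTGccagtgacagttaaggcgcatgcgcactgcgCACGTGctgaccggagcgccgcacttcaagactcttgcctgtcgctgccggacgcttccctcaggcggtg
Sycp3 (chr10:88459337-88459636, plus strand): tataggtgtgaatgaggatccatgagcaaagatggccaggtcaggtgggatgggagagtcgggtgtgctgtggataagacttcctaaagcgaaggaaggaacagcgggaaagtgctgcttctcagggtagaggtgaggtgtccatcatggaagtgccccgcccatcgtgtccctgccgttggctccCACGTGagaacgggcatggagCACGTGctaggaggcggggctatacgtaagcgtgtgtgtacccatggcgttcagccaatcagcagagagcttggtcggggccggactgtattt
Ddx4 (chr13:112652261-112652560, minus strand): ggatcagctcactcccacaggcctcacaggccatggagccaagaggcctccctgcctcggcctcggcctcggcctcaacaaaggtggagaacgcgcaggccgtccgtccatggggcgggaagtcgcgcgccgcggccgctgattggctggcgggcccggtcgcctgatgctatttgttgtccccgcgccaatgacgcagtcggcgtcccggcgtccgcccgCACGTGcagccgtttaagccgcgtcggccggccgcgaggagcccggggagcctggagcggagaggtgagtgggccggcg
Dazl (chr17:50293571-50293870, minus strand): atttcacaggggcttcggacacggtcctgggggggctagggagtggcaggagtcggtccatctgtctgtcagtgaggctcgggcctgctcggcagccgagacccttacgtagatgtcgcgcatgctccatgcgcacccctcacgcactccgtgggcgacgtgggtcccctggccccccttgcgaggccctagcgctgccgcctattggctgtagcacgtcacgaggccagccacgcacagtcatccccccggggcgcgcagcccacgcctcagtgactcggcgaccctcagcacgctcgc
The first bases of the matches lie 57 and 20 bases before the start site of Hormad1, 64 and 43 bases before that of Sycp3 and 29 bases before that of Ddx4.

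Dazl, which encodes an RNA-binding protein that licenses germ cells for their sexual fate, was at 505 and 296 RPM in d4c7 PGCLCs, against 12.9 and 9.44 RPM in E9.5 PGCs. The change was 5.01 ± 0.29 on the log2 scale (adjusted p = 3.42e-08), and the lower d4c7 library stood far above both E9.5 libraries. Hormad1, whose protein sits on the axes of meiotic chromosomes, was at 69.1 and 48.0 RPM in d4c7 PGCLCs, against 3.68 and 4.72 RPM in E9.5 PGCs (log2 change 3.50 ± 0.26, adjusted p = 3.75e-07). Ddx4, the germ cell RNA helicase Vasa, was at 118 and 78.9 RPM in d4c7 PGCLCs, against 29.9 and 26.6 RPM in E9.5 PGCs (log2 change 1.74 ± 0.21, adjusted p = 3.26e-05), so it was already detected at E9.5. Sycp3, which encodes a lateral element protein of the synaptonemal complex, was at 26.7 and 20.2 RPM in d4c7 PGCLCs, against 2.21 and 5.90 RPM in E9.5 PGCs (log2 change 2.36 ± 0.38, adjusted p = 0.000315). Genes of the piRNA pathway, which silences transposons in germ cells, were divided. Piwil2, which encodes the Piwi protein MILI, was at 108 and 80.5 RPM in d4c7 PGCLCs, against 18.8 and 18.4 RPM in E9.5 PGCs (log2 change 2.27 ± 0.16, adjusted p = 3.21e-07). Mael and Tdrd12 rose by 2.24 ± 0.34 and 2.01 ± 0.27 on the log2 scale, and the helicase gene Mov10l1 by 1.72 ± 0.28. Asz1 and Tdrd5, of the same pathway, did not pass the test, at 11.8 and 10.5 RPM in d4c7 PGCLCs, against 9.56 and 6.13 RPM in E9.5 PGCs for Asz1 and 22.8 and 27.1 RPM in d4c7 PGCLCs, against 26.8 and 34.9 RPM in E9.5 PGCs for Tdrd5. Called and uncalled members thus stood side by side in this pathway. Tuba3a and Tuba3b, germ cell alpha-tubulin genes, were both called higher (log2 changes 2.85 ± 0.26 and 3.10 ± 0.29), and their near-identical sequence makes the split of reads between them uncertain. Rpl10l, a retrocopy of Rpl10 whose reads could be shared with its parent, was called higher by 3.16 ± 0.29.

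The d4c7 levels lay between those of E9.5 and E12.5 for most of the members called higher. For 12 of the 15 members called higher, the d4c7 mean was below the means of both male and female E12.5 germ cells. Among all 1965 genes called higher this held for 254. The list is made of genes that come on around arrival in the gonad, so high E12.5 values were built into it. Levels above E9.5 were set by the choice of members called higher. Dazl averaged 400.3 ± 147 RPM in d4c7 PGCLCs, 11.2 ± 2.43 RPM in E9.5 PGCs, 1174 ± 15.4 RPM in male and 1218 ± 38.2 RPM in female E12.5 germ cells (SD, n = 2 each). Slc25a31, a germ cell ADP/ATP carrier gene, did not pass the test, at 12.2 and 8.96 RPM in d4c7 PGCLCs, against 9.56 and 6.13 RPM in E9.5 PGCs (adjusted p = 0.225), with 136 ± 14.8 RPM and 150.1 ± 2.17 RPM in the male and female E12.5 groups. Over culture, 10 of the 15 stood in the order E9.5, d4c3, d4c5, d4c7 by their means, against 966 of 1965 genes called higher.

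Meiotic genes also moved in both directions. Of 15 tested, 6 rose and 2 fell (1 without d4c7 replicate 1 or either E9.5 library), with Sycp1, Sycp3 and Hormad1 counted in both lists. Stra8, a retinoic acid-induced gate to meiosis, was at 11.0 and 8.79 RPM in d4c7 PGCLCs, against 0.735 and 0.236 RPM in E9.5 PGCs (log2 change 2.89 ± 0.38, adjusted p = 7.01e-05). The meiotic cohesin gene Smc1b was at 42.0 and 41.7 RPM in d4c7 PGCLCs, against 8.09 and 6.60 RPM in E9.5 PGCs (log2 change 2.37 ± 0.17, adjusted p = 3.75e-07). Its partner Rec8, another retinoic acid-responsive gene in germ cells, averaged 12.3 ± 3.54 RPM in d4c7 PGCLCs and 12.7 ± 0.335 RPM in E9.5 PGCs (SD, n = 2 each), with overlapping groups and no call (limma, adjusted p = 0.905). Syce2, of the central element, was lower at 304 and 281 RPM in d4c7 PGCLCs, against 449 and 447 RPM in E9.5 PGCs (log2 change -0.61 ± 0.11, adjusted p = 0.000521). Spo11, the break-making enzyme of recombination, was at 0.393 and 3.79 RPM in d4c7 PGCLCs, against 6.25 and 8.49 RPM in E9.5 PGCs (log2 change -1.68 ± 0.53, adjusted p = 0.0262).

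Calls among genes of the DNA methylation machinery went in both directions. Of 12 tested genes 2 rose, near the background share, and 3 fell, above the background share, with a median of -0.02. There were 1 lower without E9.5 replicate 1, 2 lower without E9.5 replicate 2 or without d4c7 replicate 1, and 3 higher and 5 lower without d4c7 replicate 2. Dnmt1, the maintenance methyltransferase gene, was at 146 and 221 RPM in d4c7 PGCLCs, against 161 and 176 RPM in E9.5 PGCs and did not pass the test (adjusted p = 0.718). Uhrf1, which brings DNMT1 to replicating DNA, was at 8.25 and 12.2 RPM in d4c7 PGCLCs, against 30.9 and 25.7 RPM in E9.5 PGCs (log2 change -1.40 ± 0.33, adjusted p = 0.00527, and adjusted p = 0.0629 without E9.5 replicate 1). The groups thus overlapped for Dnmt1 and not for Uhrf1. Of the de novo enzymes, Dnmt3b was at 21.2 and 42.9 RPM in d4c7 PGCLCs, against 5.15 and 7.55 RPM in E9.5 PGCs (log2 change 2.11 ± 0.37, adjusted p = 0.000632). Dnmt3a was at 10.2 and 18.8 RPM in d4c7 PGCLCs, against 33.5 and 32.8 RPM in E9.5 PGCs (log2 change -1.20 ± 0.30, adjusted p = 0.00705), the opposite direction to Dnmt3b. Its call was lost without d4c7 replicate 1 (adjusted p = 0.0703) and without either E9.5 library. Dnmt3l, the cofactor of both, was at 178 and 41.0 RPM in d4c7 PGCLCs, against 0 and 0 RPM in E9.5 PGCs. The d4c7 libraries differed widely for it, yet both stood above a listed 0 (adjusted p = 1.23e-05).

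Tet1, which encodes a 5-methylcytosine oxidase, was at 101 and 168 RPM in d4c7 PGCLCs, against 49.3 and 51.7 RPM in E9.5 PGCs (log2 change 1.35 ± 0.21, adjusted p = 0.000289). In its list of 15 demethylation and base excision repair genes, 2 rose and 4 fell, and 1 rose when any single library was left out. Among those that fell, Gadd45a, a stress-induced gene, was at 32.2 and 31.4 RPM in d4c7 PGCLCs, against 68.2 and 72.4 RPM in E9.5 PGCs (log2 change -1.12 ± 0.23, adjusted p = 0.00186). Of 16 genes of histone H3K9 methylation 4 were called higher, namely Atf7ip, Wiz, Setdb1 and Trim28, by 0.28 to 1.02 on the log2 scale. Only Atf7ip kept its call under every alternative processing given below. The calls of Wiz, Setdb1 and Trim28 were each lost when some single libraries were left out. A fit of the 4 libraries alone left 1 call. Of 23 Polycomb genes 7 rose and 2 fell, and without E9.5 replicate 2 there were 3 and 1, with 8 and 4 without d4c7 replicate 2 and 5 and 1 without E9.5 replicate 1. Suz12, a core subunit of Polycomb repressive complex 2, was at 279 and 142 RPM in d4c7 PGCLCs, against 81.2 and 79.5 RPM in E9.5 PGCs (log2 change 1.30 ± 0.24, adjusted p = 0.000969). The catalytic subunit gene Ezh2 was at 264 and 199 RPM in d4c7 PGCLCs, against 229 and 245 RPM in E9.5 PGCs and did not pass the test (adjusted p = 0.816). Cbx2, of Polycomb repressive complex 1, was at 44.8 and 41.9 RPM in d4c7 PGCLCs, against 89.7 and 77.8 RPM in E9.5 PGCs (log2 change -0.93 ± 0.20, adjusted p = 0.00265).

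Imprinted genes, which are transcribed from 1 parental copy and mostly regulate growth, were largely lower in d4c7 PGCLCs. Of 32 tested, 18 fell and 5 rose, with a median of -1.17. Phlda2 (chr7:143501545-143503145), a maternally expressed brake on placental growth, was at 24.3 and 29.0 RPM in d4c7 PGCLCs, against 304 and 306 RPM in E9.5 PGCs. The change was -3.47 ± 0.14 (adjusted p = 1.43e-09), with replicates close in both groups. Igf2, the fetal growth factor gene, was at 1.18 and 3.45 RPM in d4c7 PGCLCs, against 179 and 172 RPM in E9.5 PGCs (log2 change -5.82 ± 0.38, adjusted p = 1.24e-07). H19, the non-coding RNA gene next to it that is expressed from the other parental copy, was lower as well, at 20.8 and 43.3 RPM in d4c7 PGCLCs, against 122 and 133 RPM in E9.5 PGCs (log2 change -2.04 ± 0.30, adjusted p = 0.000145). Both genes of this pair were thus low in culture. Grb10, a growth-restraining adaptor gene, was at 3.93 and 1.90 RPM in d4c7 PGCLCs, against 145 and 146 RPM in E9.5 PGCs (log2 change -5.28 ± 0.40, adjusted p = 5.48e-07). Dlk1 was listed at 0 in both d4c7 libraries, against 14.3 and 12.97 RPM in E9.5 PGCs, and Meg3 of the same domain was at 1.96 and 5.86 RPM in d4c7 PGCLCs, against 56.6 and 49.1 RPM in E9.5 PGCs. Genes expressed from the paternal copy (Igf2, Dlk1) and from the maternal copy (H19, Grb10, Phlda2, Meg3) were both among the members that fell. Mest, a paternally expressed gene, was at 101 and 78.3 RPM in d4c7 PGCLCs, against 451 and 442 RPM in E9.5 PGCs (log2 change -2.31 ± 0.20, adjusted p = 1.95e-06). Peg3, also paternally expressed, was higher at 405 and 356 RPM in d4c7 PGCLCs, against 232 and 249.6 RPM in E9.5 PGCs (log2 change 0.66 ± 0.12, adjusted p = 0.000963). Igf2r was at 79.3 and 69.6 RPM in d4c7 PGCLCs, against 91.9 and 81.9 RPM in E9.5 PGCs and did not pass the test (adjusted p = 0.224). The number called lower was 15 to 17, and the number called higher 1 to 4, when each library was left out, with 1 without E9.5 replicate 2 and 2 without d4c7 replicate 1 or E9.5 replicate 1. The mesoderm marker sums of 3.53 and 1.72 RPM in d4c7 PGCLCs, against 82.4 and 87.3 RPM in E9.5 PGCs, moved with this group, and their part in it was not tested.

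Hox genes, which set position along the body axis of somatic tissue, were low in culture. Of 28 with a row, 17 passed the filter on low values and these 17 fell, with a median of -3.07, or -2.32 with values raised to the floor of 3 reads. All 28 summed to 5.92 and 0.553 RPM in d4c7 PGCLCs, against 194 and 206 RPM in E9.5 PGCs. Apart from Hoxa10, whose values in E12.5 male germ cells passed it, the tested members passed the filter through their E9.5 values, which fixed their direction. The other 11 were too low to be tested. Hoxb9 was at 0.785 and 0.00862 RPM in d4c7 PGCLCs, against 26.1 and 32.1 RPM in E9.5 PGCs (log2 change -4.48 ± 0.42, adjusted p = 3.96e-06). Hoxb3, Hoxb5, Hoxb7 and Hoxb8 were listed at 0 in both d4c7 libraries, against 6.37 to 11.1 RPM in the E9.5 libraries. The early mesoderm and BMP response list, which covers signals that induce PGCs, had 10 of 14 tested genes lower and 2 higher (median -1.56), with 1 higher without d4c7 replicate 1 or E9.5 replicate 1. Id1, a direct target of BMP signalling, was at 3.53 and 1.21 RPM in d4c7 PGCLCs, against 56.2 and 63.5 RPM in E9.5 PGCs (log2 change -4.26 ± 0.38, adjusted p = 2.57e-06). Id3, another target, was at 87.6 and 104 RPM in d4c7 PGCLCs, against 217 and 217 RPM in E9.5 PGCs (log2 change -1.18 ± 0.22, adjusted p = 0.000949). The groups overlapped for neither Id1 nor Id3. The homeobox target Msx2 was at 7.59 and 12.0 RPM in d4c7 PGCLCs, against 55.5 and 64.5 RPM in E9.5 PGCs (log2 change -2.53 ± 0.29, adjusted p = 2.29e-05). Gata2 went the other way, at 50.3 and 48.3 RPM in d4c7 PGCLCs, against 14.7 and 22.2 RPM in E9.5 PGCs (log2 change 1.40 ± 0.20, adjusted p = 0.00012). Hox and BMP response genes are expressed in somatic mesoderm too, and the marker sums of that tissue given above were higher in E9.5 PGCs. Their part was not tested.

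Metabolic genes differed by pathway. Of 20 genes of glycolysis and glucose transport, 9 fell and 3 rose, with a median of -0.36, and 1 or 2 rose when any single library was left out (1 without E9.5 replicate 1). Ldha, which encodes the lactate dehydrogenase subunit of glycolytic tissues, was at 27.9 and 16.0 RPM in d4c7 PGCLCs, against 640.1 and 620.0 RPM in E9.5 PGCs. This was the largest fall of the list, -4.83 ± 0.24 on the log2 scale (adjusted p = 8.13e-09). Ldhb, the subunit gene of oxidative tissues, went the other way, at 74.6 and 129.5 RPM in d4c7 PGCLCs, against 19.5 and 19.8 RPM in E9.5 PGCs (log2 change 2.27 ± 0.23, adjusted p = 7.97e-06). Slc16a3, the lactate exporter gene, was at 3.14 and 1.55 RPM in d4c7 PGCLCs, against 53.7 and 57.3 RPM in E9.5 PGCs (log2 change -4.12 ± 0.42, adjusted p = 7.67e-06). For Ldha and Slc16a3 both d4c7 libraries lay below both E9.5 libraries, and for Ldhb above them. Among enzymes, Pfkl was at 5.89 and 2.93 RPM in d4c7 PGCLCs, against 46.7 and 46.7 RPM in E9.5 PGCs (log2 change -3.20 ± 0.32, adjusted p = 7.43e-06). Tpi1 was at 50.3 and 59.3 RPM in d4c7 PGCLCs, against 248 and 238 RPM in E9.5 PGCs (log2 change -2.13 ± 0.16, adjusted p = 3.75e-07). Gapdh was at 2429.8 and 3570.2 RPM in d4c7 PGCLCs, against 3792 and 3289.8 RPM in E9.5 PGCs, with overlapping groups and no call (adjusted p = 0.201). Some enzyme genes of the pathway were thus called and others were not. Slc2a3, a glucose transporter gene of early embryos, was higher at 536 and 810.3 RPM in d4c7 PGCLCs, against 414 and 367 RPM in E9.5 PGCs (log2 change 0.76 ± 0.21, adjusted p = 0.013). Of 17 hypoxia response genes 5 fell and 3 rose (median -0.39), with 2 and 2 without E9.5 replicate 1, 2 and 1 without E9.5 replicate 2, and 4 and 2 without d4c7 replicate 1. Of 29 oxidative phosphorylation genes none rose and 4 fell, a share equal to the background of 13.8%, with a median of -0.06. Without either E9.5 library 1 fell, and without d4c7 replicate 2 there were 3 higher and 6 lower. Cycs, which encodes cytochrome c, led these at 557 and 512 RPM in d4c7 PGCLCs, against 911 and 888 RPM in E9.5 PGCs (log2 change -0.75 ± 0.09, adjusted p = 3.39e-05).

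The lists of fatty acid oxidation and of retinoid binding were drawn up after their leading genes had been seen, so their counts describe and support nothing. Of 19 fatty acid oxidation genes, 12 were higher in d4c7 PGCLCs and 1 lower (median 0.58). Fabp3, which encodes a fatty acid-binding protein of heart muscle, was at 186 and 207 RPM in d4c7 PGCLCs, against 1.84 and 1.89 RPM in E9.5 PGCs (log2 change 6.11 ± 0.24, adjusted p = 1.43e-09). Cpt1a, the gate for entry of fatty acids into mitochondria, was at 38.1 and 58.6 RPM in d4c7 PGCLCs, against 4.41 and 2.36 RPM in E9.5 PGCs (log2 change 3.50 ± 0.31, adjusted p = 2.68e-06). For Fabp3 and Cpt1a both d4c7 libraries lay above both E9.5 libraries. Hadh, an enzyme gene of beta-oxidation, was at 177 and 225 RPM in d4c7 PGCLCs, against 36.0 and 30.9 RPM in E9.5 PGCs (log2 change 2.55 ± 0.18, adjusted p = 2.61e-07). Cpt2 and Hadha did not pass the test (adjusted p = 0.743 and adjusted p = 0.949). Of 14 retinoid genes, 7 were lower and 1 higher (median -1.26). Crabp1, which encodes a cytoplasmic retinoic acid-binding protein, was at 9.42 and 19.5 RPM in d4c7 PGCLCs, against 118 and 123 RPM in E9.5 PGCs (log2 change -3.06 ± 0.37, adjusted p = 3.24e-05). Cyp26a1, whose enzyme degrades retinoic acid, was the 1 member higher in culture, at 22.0 and 10.5 RPM in d4c7 PGCLCs, against 1.84 and 3.54 RPM in E9.5 PGCs (log2 change 2.18 ± 0.71, adjusted p = 0.0292).

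Targets of the tumour suppressor p53, a transcription factor that responds to DNA damage and other stress, were the list with the highest share of members called higher, since 17 of 18 tested rose and none fell (median 1.50). These figures hold for the members listed. Gadd45a, a p53-induced gene counted with the demethylation genes instead, fell (log2 change -1.12). Trp53inp1, a p53-induced regulator of cell death and autophagy, was at 237 and 237 RPM in d4c7 PGCLCs, against 32.0 and 34.7 RPM in E9.5 PGCs (log2 change 2.80 ± 0.11, adjusted p = 1.43e-09). Ccng1, which encodes cyclin G1, was at 238 and 167 RPM in d4c7 PGCLCs, against 27.2 and 25.7 RPM in E9.5 PGCs (log2 change 2.87 ± 0.16, adjusted p = 2.31e-08). Phlda3, an inhibitor of AKT signalling, was at 49.5 and 47.7 RPM in d4c7 PGCLCs, against 3.31 and 4.25 RPM in E9.5 PGCs (log2 change 3.38 ± 0.26, adjusted p = 5.51e-07). In each of these the lower d4c7 library stood several times above the higher E9.5 library. The death genes Pmaip1 (Noxa) and Bbc3 (Puma) rose by 3.64 ± 0.37 and 2.32 ± 0.35 on the log2 scale, and Bax by 0.83 ± 0.19. Mdm2, which encodes the ligase that limits p53, was at 289.9 and 192 RPM in d4c7 PGCLCs, against 81.3 and 79.1 RPM in E9.5 PGCs (log2 change 1.55 ± 0.17, adjusted p = 1.25e-05). Cdkn1a, the cell cycle inhibitor gene p21, was at 21.2 and 21.0 RPM in d4c7 PGCLCs, against 6.62 and 7.55 RPM in E9.5 PGCs (log2 change 1.45 ± 0.28, adjusted p = 0.0014). Trp53 itself is counted in the list and was at 125 and 221 RPM in d4c7 PGCLCs, against 43.4 and 3.54 RPM in E9.5 PGCs. The E9.5 replicates of Trp53 stood far apart, and its log2 change was 3.56 ± 0.73 (adjusted p = 0.00196), with 5.20 without E9.5 replicate 1 and 1.91 without E9.5 replicate 2. Plk2 did not pass the test, at 0.393 and 4.83 RPM in d4c7 PGCLCs, against 1.47 and 3.07 RPM in E9.5 PGCs. Without E9.5 replicate 1 there were 15 calls, and 17 without any other single library. Of the 17, 14 stood in the order E9.5, d4c3, d4c5, d4c7 by their means. The mean of d4c3 lay between those of d4c7 and E9.5 for 16 of the 17, against 2599 of all 3463 called genes.

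**Figure D2:**
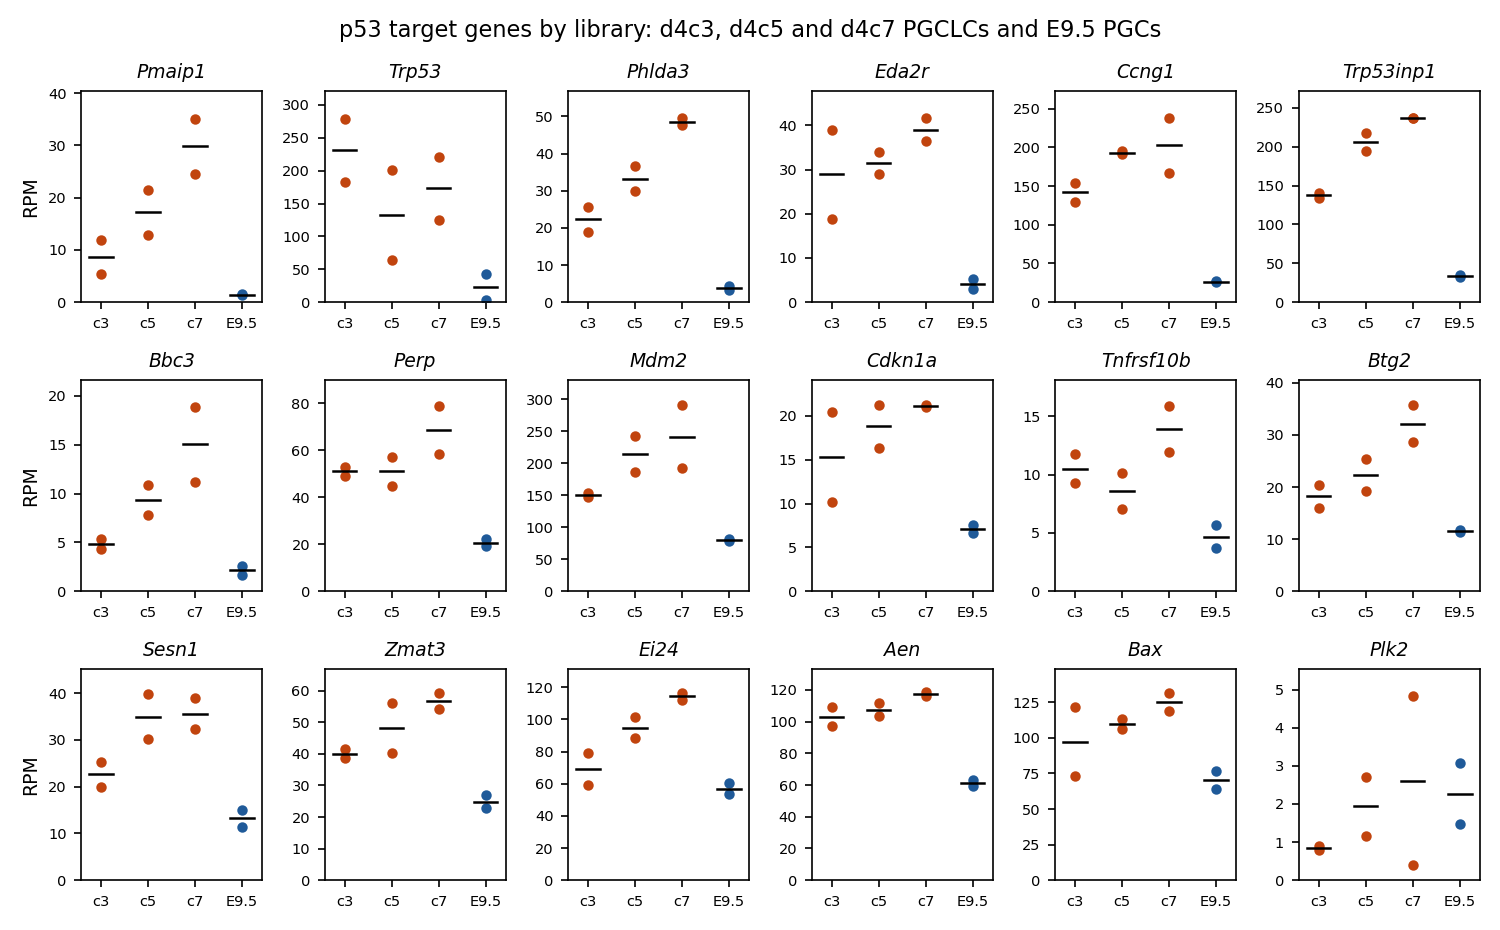
RPM of the 18 tested genes of the p53 target list in each library (points) with group means (lines), for d4c3, d4c5 and d4c7 PGCLCs (c3, c5, c7) and E9.5 PGCs, each panel on its own axis from 0. Trp53inp1, Ccng1 and Phlda3 climb over culture and lie well above E9.5, Trp53 does not climb over culture, and Plk2 overlaps between groups.

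Few mitotic genes were called. Of 20 mitotic genes 2 rose and 1 fell, with a median of 0.01. Leaving out each library in turn gave 1 to 4 higher and 0 to 2 lower, with most (4 and 2) without d4c7 replicate 1. Ccnb1, a mitotic cyclin gene, was at 519 and 491 RPM in d4c7 PGCLCs, against 447 and 475 RPM in E9.5 PGCs and did not pass the test (adjusted p = 0.305). Top2a, the topoisomerase gene of dividing cells, was at 557 and 599 RPM in d4c7 PGCLCs, against 606 and 579.8 RPM in E9.5 PGCs (adjusted p = 0.811). Of 17 genes of G1 and its inhibitors 3 rose and 5 fell, with 1 and 3 without E9.5 replicate 2 and 2 and 3 without E9.5 replicate 1 or without d4c7 replicate 1. Ccnd1 and Ccnd2, D-type cyclin genes, were both low in culture, with Ccnd1 at 2.36 and 1.21 RPM in d4c7 PGCLCs, against 32.0 and 31.6 RPM in E9.5 PGCs (log2 change -3.59 ± 0.46, adjusted p = 5.36e-05). Ccnd3 was at 34.6 and 57.4 RPM in d4c7 PGCLCs, against 50.0 and 42.3 RPM in E9.5 PGCs, with overlapping groups (adjusted p = 0.899). Cdkn1c, an imprinted inhibitor gene that stands in both lists, was at 6.68 and 6.03 RPM in d4c7 PGCLCs, against 66.9 and 71.9 RPM in E9.5 PGCs (log2 change -3.26 ± 0.26, adjusted p = 9.51e-07). Of 13 histone genes 8 fell and none rose (median -1.04). H2afy2, which encodes the variant macroH2A2, was at 7.85 and 9.13 RPM in d4c7 PGCLCs, against 56.2 and 66.0 RPM in E9.5 PGCs (log2 change -2.71 ± 0.30, adjusted p = 1.35e-05). H1f0, a replacement linker histone gene, was at 18.5 and 15.5 RPM in d4c7 PGCLCs, against 82.4 and 82.3 RPM in E9.5 PGCs (log2 change -2.22 ± 0.24, adjusted p = 1.4e-05).

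Counts of called signalling genes depended on single libraries, as did the count over all genes. Over all genes tested, 18.1% were called higher and 13.8% lower. Of 13 Nodal pathway genes 3 rose and 3 fell, but none fell without E9.5 replicate 1 or without E9.5 replicate 2, and 2 rose and 1 fell without d4c7 replicate 1. Lefty1, a feedback inhibitor of Nodal, was at 67.0 and 57.8 RPM in d4c7 PGCLCs, against 8.64 and 6.84 RPM in E9.5 PGCs (log2 change 2.86 ± 0.22, adjusted p = 7.47e-07). Nodal was at 29.1 and 21.4 RPM in d4c7 PGCLCs, against 11.0 and 9.91 RPM in E9.5 PGCs (log2 change 1.18 ± 0.29, adjusted p = 0.00672), a call lost without d4c7 replicate 1 or E9.5 replicate 2. Of 16 genes of FGF and ERK feedback 3 rose and 4 fell, with 2 lower without E9.5 replicate 1, E9.5 replicate 2 or d4c7 replicate 1. Fgfr2, a receptor gene, was at 151 and 98.6 RPM in d4c7 PGCLCs, against 41.5 and 39.2 RPM in E9.5 PGCs (log2 change 1.57 ± 0.24, adjusted p = 0.000192). Feedback genes were not all higher with it. Spred1, an inhibitor of ERK signalling, was at 18.8 and 36.3 RPM in d4c7 PGCLCs, against 82.2 and 67.5 RPM in E9.5 PGCs (log2 change -1.47 ± 0.25, adjusted p = 0.000517). Of 15 cAMP response genes that passed the filter 5 rose and none fell (median 0.90). Over all 24 with no filter, 3 rose and 1 fell and the median was 0. The median over the 15 was 0.45 without E9.5 replicate 1 and 0.49 without E9.5 replicate 2, and without d4c7 replicate 2 or E9.5 replicate 2 there were 2 calls and without E9.5 replicate 1 there were 3. Nr4a1, an immediate early receptor gene, was at 7.07 and 6.57 RPM in d4c7 PGCLCs, against 0.368 and 1.89 RPM in E9.5 PGCs (log2 change 1.98 ± 0.39, adjusted p = 0.00142). Of 15 surface and migration genes 2 rose and 3 fell, with 1 higher without E9.5 replicate 1, 2 lower without E9.5 replicate 2 or d4c7 replicate 1, and 3 higher and 5 lower without d4c7 replicate 2. Cd9, a tetraspanin gene, was at 316 and 330.2 RPM in d4c7 PGCLCs, against 54.8 and 49.5 RPM in E9.5 PGCs (log2 change 2.61 ± 0.15, adjusted p = 3.26e-08). Other surface genes went the opposite way. Cd24a, a surface glycoprotein gene, was at 30.2 and 55.3 RPM in d4c7 PGCLCs, against 381 and 360.4 RPM in E9.5 PGCs (log2 change -3.15 ± 0.24, adjusted p = 6.04e-07). Cxcr4, the receptor that guides PGC migration, did not pass the filter, at 0.785 and 0.689 RPM in d4c7 PGCLCs, against 2.21 and 4.48 RPM in E9.5 PGCs. Of 22 cholesterol synthesis genes 1 rose and 2 fell, and neither direction had a call without E9.5 replicate 1 or without E9.5 replicate 2. Of 22 genes of amino acid and unfolded protein stress 5 rose and 3 fell, with 1 higher and 1 lower without E9.5 replicate 1, 3 and 1 without E9.5 replicate 2, and 4 and 5 without d4c7 replicate 2.

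**Figure D3:**
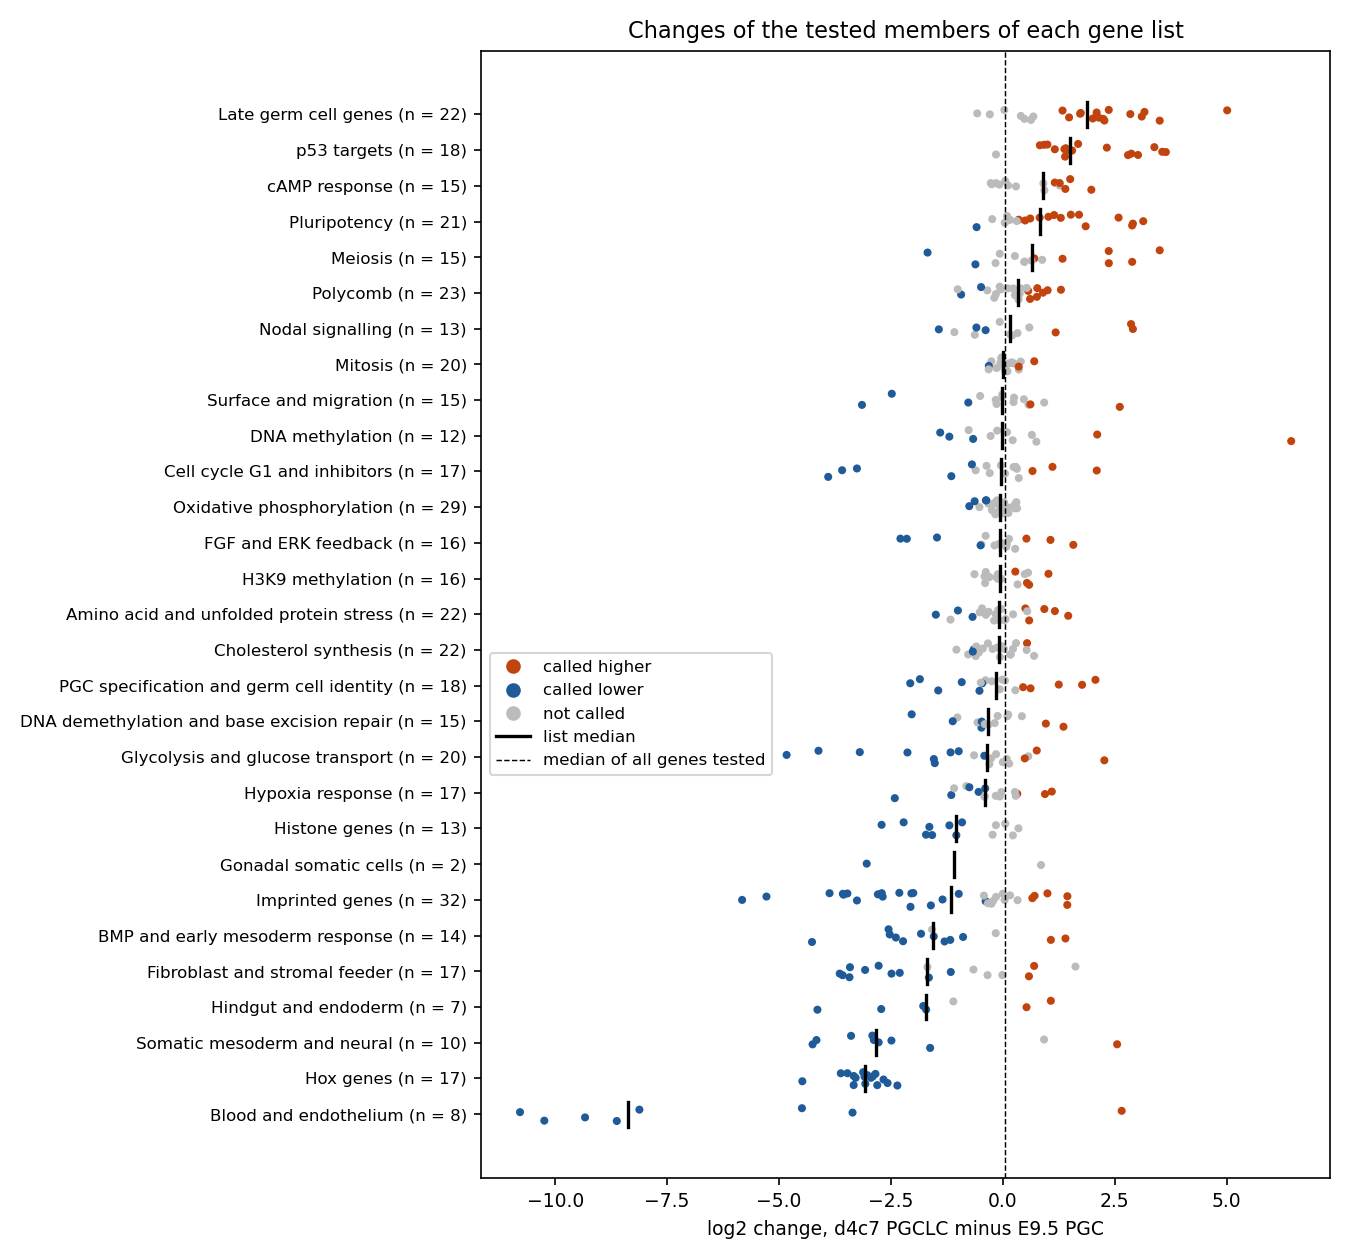
Log2 change (d4c7 PGCLC minus E9.5 PGC) of every tested member of the 29 gene lists, 1 point per gene, ordered by list median (bar), with the median of all 10856 tested genes as a dashed line. Late germ cell genes and p53 targets lie to the right, Hox genes and blood genes to the left, and mitotic and oxidative phosphorylation genes around 0.

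Large changes also fell on genes not described so far, and Col3a1 of the stromal list is given with them. By the naming rule, the 20 largest increases included Htra1, a secreted protease gene, at 147 and 68.8 RPM in d4c7 PGCLCs, against 1.10 and 0.236 RPM in E9.5 PGCs. Calcoco2, an autophagy receptor gene, was at 251 and 187 RPM in d4c7 PGCLCs, against 5.51 and 4.95 RPM in E9.5 PGCs (log2 change 5.13 ± 0.25, adjusted p = 6.65e-09). Spp1, which encodes the secreted protein osteopontin, was at 333 and 179 RPM in d4c7 PGCLCs, against 14.7 and 16.7 RPM in E9.5 PGCs (log2 change 3.87 ± 0.26, adjusted p = 1.95e-07). The E9.5 libraries of these genes were close to each other or near 0. Lgals9, which encodes galectin-9, was at 326 and 175 RPM in d4c7 PGCLCs, against 16.9 and 23.6 RPM in E9.5 PGCs (log2 change 3.52 ± 0.25, adjusted p = 3.21e-07). In all 4 genes both d4c7 libraries lay above both E9.5 libraries. Further increases were Dgka, D14Ertd668e, Mylpf, Pdlim1, Prkch, Inpp5d, Trap1a, Dennd2c, Dusp16, Pawr and Fam129a, with log2 changes from 3.17 to 5.26. Among the 20 largest decreases, Marcks, a protein kinase C substrate gene, was at 7.07 and 8.10 RPM in d4c7 PGCLCs, against 149.7 and 132 RPM in E9.5 PGCs (log2 change -4.05 ± 0.24, adjusted p = 4.14e-08). Hmga2, a chromatin protein gene of embryonic growth, was at 10.6 and 6.89 RPM in d4c7 PGCLCs, against 90.8 and 106 RPM in E9.5 PGCs (log2 change -3.37 ± 0.35, adjusted p = 9.14e-06). Neither Marcks nor Hmga2 had overlapping groups. Igfbp4, which encodes an insulin-like growth factor-binding protein, was at 0.393 and 0.345 RPM in d4c7 PGCLCs, against 55.9 and 47.4 RPM in E9.5 PGCs (log2 change -5.26 ± 0.42, adjusted p = 8.82e-07). Col3a1, a collagen gene of stroma, was at 9.42 and 1.55 RPM in d4c7 PGCLCs, against 61.0 and 66.0 RPM in E9.5 PGCs (log2 change -3.64 ± 0.96, adjusted p = 0.0101), a call lost without d4c7 replicate 2 or either E9.5 library.

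Calls were not spread evenly over chromosomes, a pattern looked for after the values had been seen. Of 341 tested genes on chromosome 16, 102 were higher in d4c7 PGCLCs (29.9%) and 26 lower (7.62%), with a median log2 change of 0.28. On the 17 other autosomes apart from chromosome 3, between 12.0% and 20.8% of genes were higher and medians ran from -0.05 to 0.12. Relative to all genes and libraries, the median of chromosome 16 was 0.29 in d4c7 replicate 1 and -0.08 in d4c7 replicate 2, against -0.15 and -0.16 in E9.5 PGCs. It was also higher in the earlier PGCLC libraries, at 0.31 and 0.16 in d4c3 and at 0.33 and 0.06 in d4c5. Chromosome 3 stood out in the other replicate, with -0.01 and 0.22 in d4c7 PGCLCs, against -0.04 and -0.06 in E9.5 PGCs. On it, 111 of 487 genes were higher and 53 lower, with 133 and 40 without d4c7 replicate 1 and 93 and 80 without d4c7 replicate 2. Chromosome 16 had 62 genes higher and 23 lower without d4c7 replicate 1, and 124 and 24 without d4c7 replicate 2. Without both chromosomes, 1752 of 10028 genes were higher and 1419 lower. On the X chromosome 98 of 409 genes were lower and 65 higher (median -0.10), and its medians were -0.04 and -0.17 in d4c7 PGCLCs, against 0.05 and 0.06 in E9.5 PGCs. The part of these chromosome-wide shifts in single genes was not tested.

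**Figure D4:**
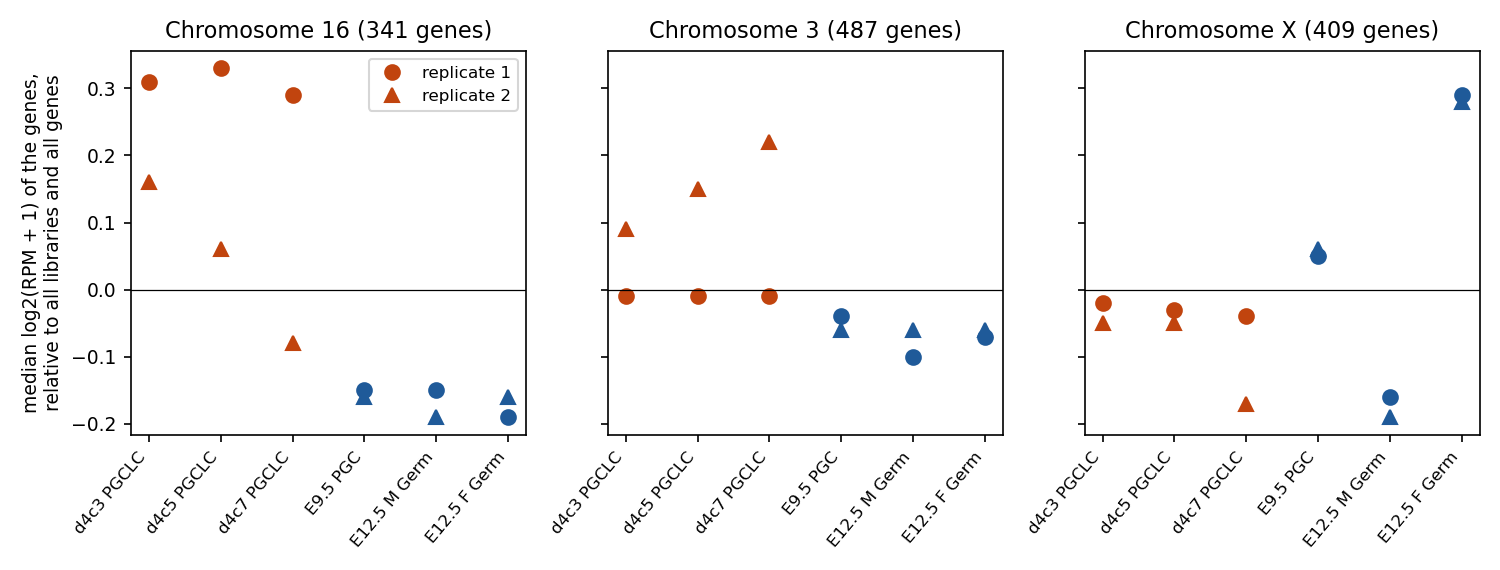
Median log2(RPM + 1) of the tested genes of chromosomes 16, 3 and X in each of the 12 libraries, relative to the mean of all libraries for each gene and the median of all genes in each library (circles replicate 1, triangles replicate 2). Chromosome 16 is high in replicate 1 of every PGCLC group, chromosome 3 in replicate 2, and X is highest in E12.5 females.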

How the data were processed

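The authors deposited 1 table of RPM, reads per 1000000 reads assigned to genes, with 26218 gene rows and 92 rows of ERCC spike-in RNA, for 12 libraries in 6 groups of 2. Per the labels' protocols, RNeasy Micro columns gave total RNA, and amplified cDNA was sequenced on a SOLiD machine. Cufflinks 2.2.0, TopHat 1.4.1, cutadapt 1.3 and the build mm10 stand in the submitters' processing notes, without the role of each.

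Low values are mostly multiples of a step taken as 1 read. Between 80.3% and 85.9% of values up to 20 reads were whole within 0.1 read, so reads were not recovered and no count test was run. Floors of 3 reads and depths rest on this step and cover counting error only, since amplified reads are not independent molecules.

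Genes with at least 5 RPM in at least 2 of the 12 libraries were tested (10856, leaving out 15362) as log2(RPM + 1), with a pseudocount of 1. A fold change on this scale understates the change of low genes. limma 3.58.1 (R 4.3.3) fitted a mean per group over all 12 libraries with a mean-variance trend (6 residual and 8.02 prior degrees of freedom). The contrast was d4c7 PGCLC minus E9.5 PGC with Benjamini-Hochberg adjustment over all tested genes and a threshold of 0.05. Tested on simulated data made from this comparison, with 10856 genes, the fit recovered 51% of changes of size 1 and 88% of changes of size 2 on the log2 scale, with 11 false calls. The simulation gave each gene the same spread in every group and changed fewer genes than were called. Replicates differed more in d4c7 PGCLCs (0.564) than in E9.5 PGCs (0.329), so its false calls and recovery may not hold for the data.

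The comparison, the 29 gene lists (619 entries, 609 with a row, 486 tested) and the naming rule were chosen with earlier results of these data known. The rule named, of called genes with no overlap between groups and at least 50 RPM in the higher mean, the 20 that rose most and the 20 that fell most. It also named up to 4 called genes per list with the largest change, and 21 genes, mostly of germ cells, in any case. Predicted genes were not named. Other list members in the text were chosen after their values were seen, as were the lists of fatty acid oxidation and retinoid genes. Positions and promoters are RefSeq's for GRCm38.p6, the build of mm10, and 10497 tested genes matched by identifier.

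Alternatives were pseudocounts of 0.5 and 5, other filters, other scalings, a fit of the 4 libraries alone, the replicate block and each library left out.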

Additional observations from a re-analysis of the deposited data

Results flagged for a closer look

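Spike-in RNAs of the ERCC set, which took no part in the comparison, were detected in 3 of the 4 libraries above the floor of 3 reads. They summed to 64.8 RPM in d4c7 replicate 1 and to 0 RPM in d4c7 replicate 2, against 1372 RPM in E9.5 replicate 1 and 628 RPM in E9.5 replicate 2. Of the 92 spike-in rows, 17 and 0 held a value in the d4c7 libraries, against 25 and 24 in the E9.5 libraries.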

How the results depend on the processing

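Against 3463 calls (1965 higher, 1498 lower), every alternative kept the number called, the number higher and the number lower within 1.5 times, except when a library was left out. Leaving out each library in turn gave 2069 to 3997 calls, 1252 to 1990 higher and 817 to 2007 lower. Without E9.5 replicate 1 there were 1252 higher and 817 lower, and without E9.5 replicate 2 there were 1278 higher and 856 lower. With 1 library left in a group, that library is assumed to vary like the other groups. The labels give no pairing behind the replicate numbers, and the replicate differences of the d4c7 and E9.5 groups correlated at -0.043 across genes. Among PGCLC groups this correlation was 0.116 (d4c3 and d4c5), 0.131 (d4c3 and d4c7) and 0.455 (d4c5 and d4c7), so same-numbered PGCLC libraries deviated together. With the replicate block there were 3682 calls (2063 higher, 1619 lower). The number changed at least 2-fold was 1909, and 1233 with a pseudocount of 5. The fit of the 4 libraries alone gave 2546 calls, and testing all 19998 genes with a value gave 3872. No called gene turned to a call in the opposite direction under any of the 12 alternatives. Of 147 named genes that were tested, 141 were called, 109 of these stayed called under every alternative that tested them and 32 lost the call under at least 1. The cause of each lost call was not tested. Scalings by the median or by quantiles moved the median of all genes by less than 0.1 on the log2 scale. The excess of genes called higher over lower nevertheless depended on scaling and filter. There were 1770 higher and 1736 lower with the median, 1872 and 1788 with quantiles, and 1913 and 1959 with no filter. The background shares of 18.1% and 13.8% therefore belong to the main scaling and filter. Depth limits genes near the floor of 0.517 to 1.18 RPM, among them most Hox genes in d4c7 PGCLCs.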

Other observations

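Metallothionein genes, whose proteins bind zinc and other metals, were higher in d4c7 PGCLCs. Mt2 was at 618 and 682 RPM in d4c7 PGCLCs, against 87.1 and 88.0 RPM in E9.5 PGCs, a log2 change of 2.88 ± 0.31 (limma, adjusted p = 1.38e-05). Mt1 was at 174 and 193 RPM in d4c7 PGCLCs, against 40.1 and 47.9 RPM in E9.5 PGCs, a log2 change of 2.04 ± 0.51 (limma, adjusted p = 0.00739). In both genes the d4c7 libraries lay above the E9.5 libraries. These genes were chosen after their values were seen.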
